A study of Homo sapiens with 29 samples.

Results

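The genes described here are those of the human mitochondrial genome: all 37 rows of the deposited count table whose symbol starts with MT-, of 60675 genes in all. They comprise 13 mRNAs, 2 rRNAs and 22 tRNAs. The 29 libraries of polyadenylated RNA fall into 10 groups, all of WM239A, an established line of human metastatic melanoma. Without drug there were 3 libraries of vector cells and 3 of cells that overexpress BRAF-V600E, a mutant kinase that keeps MAPK signalling active. All other groups were BRAF-V600E cells given 500 nM LGX818 (encorafenib), an inhibitor of that kinase: 20 h of drug, 7 days (week 1), 14, 21 and 28 days without interruption (weeks 2, 3 and 4 continuous), and an intermittent schedule of 7 days on drug and 7 days off it in DMSO. On this schedule weeks 2 and 4 were sampled off drug and week 3 after renewed drug, which is called back on drug. Each of these groups held 3 libraries, except week 4 continuous, which held 2. BRAF-V600E cells without drug are called untreated below. The labels name neither the promoter of the BRAF-V600E construct nor whether the line is 1 clone, and the untreated cells have no sample at the later weeks, so time in culture is part of every comparison of a week with them. Nothing in the labels says whether libraries of 1 group are separate cultures, so p-values measure only the spread between these libraries.

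The mitochondrial genome is a small circle that is transcribed on both strands into long precursors, from which most mRNAs and the rRNAs are released by cutting out the tRNAs that lie between them. The mRNAs encode core subunits of the respiratory chain and of the ATP synthase, and all other subunits of these complexes come from nuclear genes. The 2 rRNAs belong to the ribosome that translates the mRNAs inside the organelle. In melanoma cells the coactivator PPARGC1A (PGC1-alpha), under control of the melanocyte factor MITF, is known to raise respiratory genes, and inhibition of BRAF is known to raise it. Most mitochondrial mRNAs carry short poly(A) tails, MT-ND6 is known to be an exception, and the mature tRNAs carry none. In libraries of polyadenylated RNA a value therefore measures the captured part of each RNA.

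All 37 identifiers matched GENCODE 29 (GRCh38), on chromosome M between bases 577 and 16023. On the plus strand lie 12 of the 13 mRNAs, both rRNAs and 14 tRNAs. The minus strand holds MT-ND6 and 8 tRNAs. Of the 13 mRNA models, 6 end within a stop codon that only the poly(A) tail completes, 5 end in TAA or TAG, and 2 end in AGA or AGG. The last 15 bases of 6 mRNAs that the results turn on show these 3 kinds of ending, with the part of the last codon or the whole of it in capitals.
MT-ND1: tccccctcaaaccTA
MT-ND2: tactaataatcttaT
MT-CYB: tactcaaatgggccT
MT-ATP6: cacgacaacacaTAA
MT-CO1: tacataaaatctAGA
MT-ND6: gctcgggggaatAGG
MT-ND1 and MT-ND2 encode membrane subunits of complex I (NADH dehydrogenase), MT-CYB the cytochrome b of complex III, and MT-CO1 the catalytic subunit of complex IV (cytochrome c oxidase). MT-ND6, a further complex I subunit, is the mRNA of the other strand, and 35.6% of its bases are G, against 6.28% to 16.2% in the 12 others. Neighbouring mRNA models share bases in 3 places, the shortest of them the single base 9207, which ends MT-ATP6 and begins MT-CO3. A read that lies within shared bases cannot be assigned to 1 gene. The ATP synthase mRNAs MT-ATP8 and MT-ATP6 share 46 bases (chrM:8527-8572), printed with the start codon of MT-ATP6 and the stop codon of MT-ATP8 in capitals.
MT-ATP8 and MT-ATP6: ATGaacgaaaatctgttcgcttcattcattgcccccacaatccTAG
The complex I mRNAs MT-ND4L and MT-ND4 share 7 bases (chrM:10760-10766).
MT-ND4L and MT-ND4: ATGCTAA
Among the tRNA genes, 3 that the results turn on are those for threonine (MT-TT, chrM:15888-15953, plus strand), glutamate (MT-TE, chrM:14674-14742, minus strand) and glutamine (MT-TQ, chrM:4329-4400, minus strand), printed with the anticodon in capitals.
MT-TT: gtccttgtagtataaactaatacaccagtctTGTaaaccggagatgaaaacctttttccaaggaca
MT-TE: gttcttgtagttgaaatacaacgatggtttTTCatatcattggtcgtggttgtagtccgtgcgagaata
MT-TQ: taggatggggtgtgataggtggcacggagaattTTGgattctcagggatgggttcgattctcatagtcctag
MT-TT begins at the base after the end of MT-CYB (14747 to 15887). MT-TE occupies the bases right after those of MT-ND6 (14149 to 14673) in genome coordinates, on the same strand. The mRNA and tRNA sequences are those of the GENCODE 29 transcripts.

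Libraries held 22.9 to 35.8 mega-counts. Levels are in CPM, counts per 1000000 counts of the TMM-scaled library. Of the 37 genes, 26 had enough counts to be tested (all mRNAs and rRNAs and 11 tRNAs) among 20494 genes. Differences are log2 changes from the edgeR quasi-likelihood test of all 29 libraries, and a gene is called where its p adjusted over the 20494 genes is under 0.05. The 3rd library of week 2 continuous and the 1st of week 3 back on drug stood apart from both others of their group, with a chi-square per gene of at least 30.2 in each such pair. Results are therefore given without them where that moved a count by over 1.5 times. The melanoma label was checked against its markers: 8 of 9 melanocyte genes had a mean of at least 1 CPM, and their sum lay between 353 and 8503 CPM. It was highest at 20 h (8363 to 8503 CPM) and stood at 2408 to 2521 CPM in untreated cells and 891 to 953 CPM at week 1. At week 2 continuous it was lowest, at 353 to 395 CPM. The lowest group means were 2.83 CPM for PMEL, 2.13 CPM for DCT and 4.87 CPM for MLANA, beside 129 CPM for SOX10 and 99.4 CPM for S100B. The sum of 6 fibroblast genes, 5 of them with a mean of at least 1 CPM, was 2.80 to 16.8 CPM in vector, untreated, 20 h and off-drug libraries. In week 1 and the later libraries on drug it was 250 to 2427 CPM. At week 2 continuous it was 1063 to 1112 CPM, above the melanocyte sum. The highest group mean of COL1A1 was 2179 CPM, and of the other fibroblast genes LUM came next at 51.3 CPM. Leukocyte (at most 0.787 CPM), endothelial (at most 7.00 CPM) and keratinocyte genes (9.44 to 24.9 CPM) summed low, and no gene of these 5 lists was at 0 in every library. The melanocyte and fibroblast sums moved with the drug schedule, as several mitochondrial genes below did, and their part in those results was not tested. In bulk RNA, fewer cells of a type and less RNA per cell cannot be told apart.

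In untreated cells the level per kilobase of gene was highest for MT-CO2, a complex IV subunit, at 27777 ± 314 CPM per kb (SD, n = 3). MT-CO1 followed at 18666 ± 733 and MT-ND4 at 17866 ± 1342 CPM per kb, and this pair did not differ beyond its spread. MT-CO3 stood at 16288 ± 132 CPM per kb. MT-ATP6 (11863 ± 924), MT-RNR2 (11337 ± 294) and MT-CYB (11096 ± 459.9 CPM per kb) lay within their spread of each other. The lowest mRNA was MT-ND6 at 476 ± 73.2 CPM per kb, below MT-RNR1, the small rRNA, at 1738 ± 89.3. MT-ND6 was last and MT-RNR1 next to last of the 15 genes in all 10 groups. MT-CO2 led in 9 groups and MT-CO1 in the remaining 1, week 1. The widest moves were those of MT-ND2, from rank 13 at week 1 to rank 8 at week 2 off drug, and of MT-ND1. MT-ND1 went from rank 11 at 20 h to rank 6 at week 3 back on drug.

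The 37 genes held 15.7 ± 0.714% of all counts in untreated cells, 19.5 ± 1.62% at 20 h and 10.3 ± 0.857% at week 1 (SD, n = 3). The rRNAs took 1.95 ± 0.0446% of counts in untreated cells, 3.21 ± 0.183% at 20 h, 1.11 ± 0.0675% at week 1 and 0.867 ± 0.103% at week 2 continuous. In week 2 off-drug cells they took 1.65 ± 0.0425%. Week 3 back on drug gave 1.21 ± 0.0544%, below the 1.61 ± 0.0140% of week 3 continuous. Both groups of that week were on drug. The plot of shares shows that no library of week 1 or week 2 continuous reached the lowest 20 h library for either class.

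**Figure D1:**
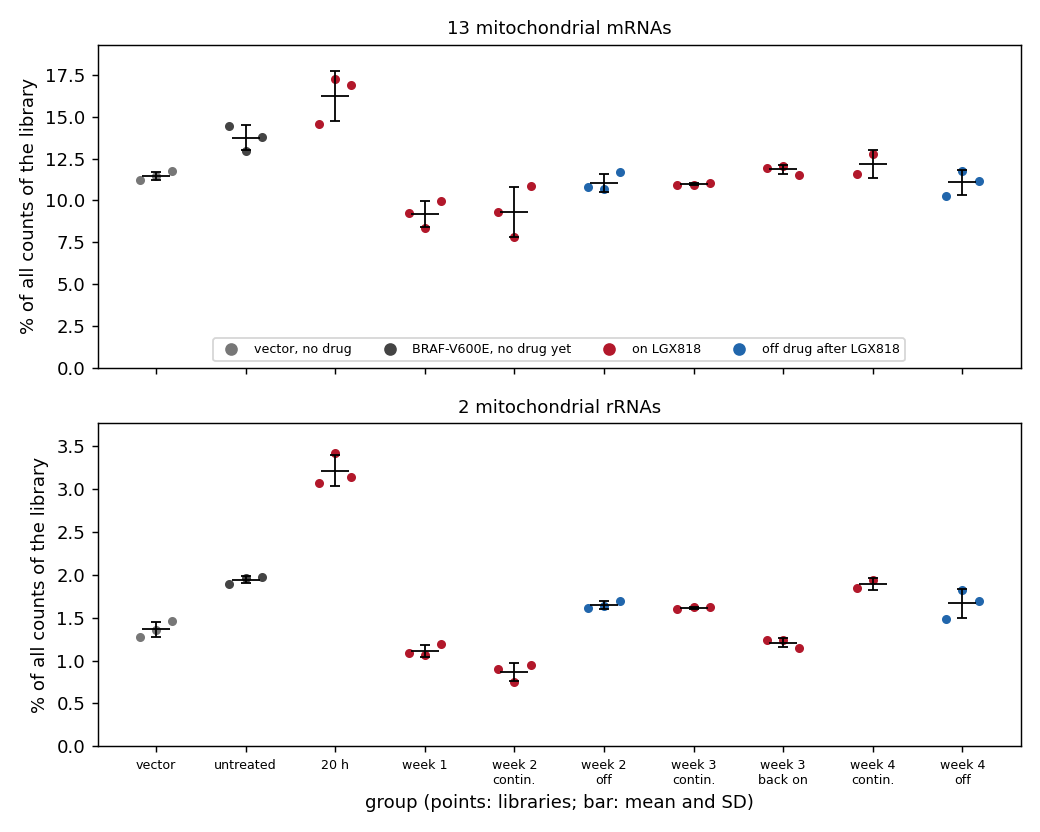
Percent of all counts of each library held by the 13 mitochondrial mRNAs (top) and the 2 mitochondrial rRNAs (bottom), by group; points are libraries, bars the mean and SD. The 20 h libraries are highest in both panels, and in the rRNA panel week 1, week 2 continuous and week 3 back on drug lie lowest.

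The first comparison asked what the BRAF-V600E construct changed before any drug. Of the 26 tested genes 7 were higher in untreated BRAF-V600E cells than in vector cells and 0 lower, where 7.04% and 9.92% of all tested genes were called higher and lower. DESeq2 called none lower either, and 0 were lower at an unadjusted p under 0.05. Both rRNAs were among the higher genes. MT-RNR1, the small rRNA, stood at 1092, 1144 and 1142 CPM in vector and 1597, 1620 and 1755 CPM in untreated libraries, which do not overlap (0.56 ± 0.08 (SE), adjusted p 5.56e-06, edgeR). MT-RNR2, the large rRNA, rose by a like amount (0.55 ± 0.08 (SE), adjusted p 1.21e-05, edgeR). Of the mRNAs, MT-ATP8 had the largest called rise (0.52), and MT-CYB (0.40), MT-ATP6 (0.40), MT-CO2 (0.39) and MT-ND4 (0.33) were called as well. MT-ND6 (0.29), MT-CO1 (0.16) and MT-ND1 (0.26) were not called. The median log2 difference was 0.31 over the 13 mRNAs and 0.00 over all tested genes. The calls of MT-ND4 (adjusted p up to 0.115), MT-ATP6 (0.0603) and MT-ATP8 (0.0925, edgeR) were lost without the 1st vector or the 3rd untreated library, and each with 1 or 2 others left out. The number higher was 14 with these groups fitted alone and 12 without the libraries that stood apart.

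At 20 h of drug 8 of 26 members were higher and 1 lower than in untreated cells, beside 28.4% and 25.2% of all genes. The number higher was near the share of all genes, and the number lower was below it. MT-RNR2 rose most of the rRNAs and mRNAs. It stood at 17144, 17957 and 17921 CPM in untreated cells and 27592, 32249 and 29237 CPM at 20 h, with no overlap (0.75 ± 0.08 (SE), adjusted p 6.85e-09, edgeR). MT-RNR1 rose less (0.30). MT-ND6 had the largest rise of an mRNA, from 294, 224 and 232 to 326, 412 and 391 CPM (0.59 ± 0.17 (SE), adjusted p 0.00444, edgeR), and all 20 h libraries lay above all untreated ones. MT-CO1 stood at 29854, 27602 and 28890 CPM untreated and 35160, 41163 and 40700 CPM at 20 h, again without overlap (0.44 ± 0.08 (SE), adjusted p 3.50e-05, edgeR). MT-CO3, a complex IV subunit, also rose (0.32), a call lost without the 2nd 20 h library (adjusted p 0.0551, edgeR). MT-ND1 (-0.21 ± 0.11 (SE)), MT-ND2 (-0.24 ± 0.12 (SE)), MT-ATP6 (0.16) and MT-CYB (0.16) were not called. Without the libraries that stood apart, which belong to other groups, 5 of the 26 genes were called lower, and single libraries left out moved that number between 0 and 3.

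By week 1 most mitochondrial mRNAs had fallen below their untreated level: 11 of 13 mRNAs and both rRNAs were lower. Over the 26 tested genes 14 were lower and 2 higher, beside 26.7% and 27.5% of all genes. MT-CYB fell most. It stood at 13207, 12161 and 12612 CPM in untreated cells, 12754, 15237 and 14534 CPM at 20 h and 5387, 4956 and 6019 CPM at week 1 (-1.21 ± 0.09 (SE), adjusted p 3.83e-13, edgeR). Every week 1 library was below every untreated and 20 h library. MT-ATP8 stood at 1424, 1739 and 1739 CPM untreated and at 762, 659.7 and 958 CPM at week 1 (-1.04 ± 0.16 (SE), adjusted p 1.16e-06, edgeR), and MT-ATP6 fell by 0.74 on the log2 scale. MT-CO2 (-0.81), MT-ND2 (-0.79), MT-ND6 (-0.75) and MT-RNR2 (-0.76) fell by like amounts. MT-RNR1 (-0.61) and MT-ND1 (-0.37) fell less. The exceptions were MT-CO1 and MT-ND3, a complex I subunit, neither of them called. MT-CO1 libraries stood at 26048, 23309 and 28232 CPM at week 1, overlapping the untreated ones (-0.15 ± 0.08 (SE)). MT-ND3 libraries stood at 1515, 1585 and 1614 CPM untreated and 1443, 1529 and 1559 CPM at week 1 (-0.06 ± 0.12 (SE)). The median over the 13 mRNAs was -0.70, and over all tested genes 0.00.

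Set against 20 h, week 1 had 17 of the 26 genes lower and 1 higher, beside 29.1% and 28.6% of all genes. This comparison shares its week 1 libraries with the preceding one. Of the rRNAs and mRNAs MT-RNR2 fell most (-1.51 ± 0.09 (SE), adjusted p 9.63e-16, edgeR), followed by MT-CYB (-1.38) and MT-ND6 (-1.34). MT-CO1 (-0.59), MT-ATP6 (-0.90) and MT-RNR1 (-0.91) fell too. MT-ND1 (-0.16) and MT-ND3 (-0.09) were not called. Of the tRNAs MT-TQ fell by 1.54, and the gene called higher was MT-TT (0.97).

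**Figure D2:**
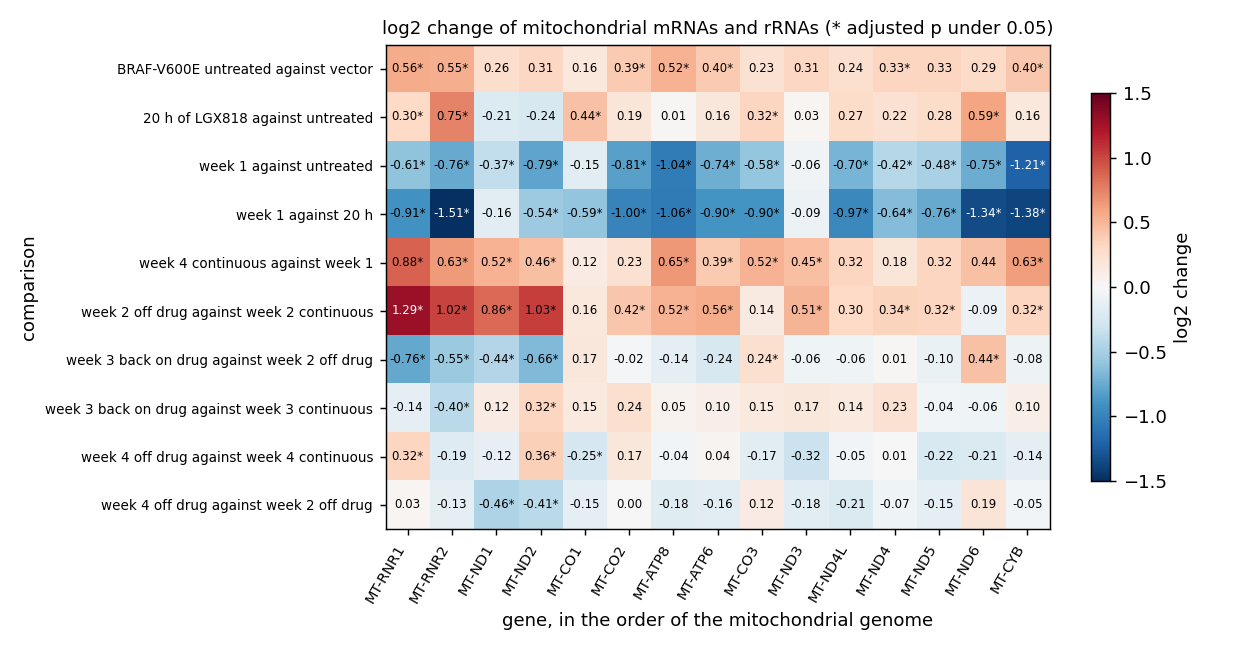
Log2 change of the 2 rRNAs and 13 mRNAs (columns, in genome order) in each of the 10 main comparisons (rows); red is higher in the group named before "against", blue lower, and an asterisk marks an adjusted p under 0.05. The rows of week 1 are blue for nearly all genes, and the row of week 2 off drug is darkest red in the 4 columns from MT-RNR1 to MT-ND2.

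On continuous drug several levels rose again between week 1 and week 4. Of the 26 genes 12 were higher at week 4 and 0 lower, beside 21.1% and 19.9% of all genes. None was lower by DESeq2 or at an unadjusted p under 0.05. MT-RNR1 stood at 1108, 1089 and 1072 CPM at week 1 and 1980 and 2044 CPM at week 4 (0.88 ± 0.09 (SE), adjusted p 1.78e-09, edgeR). Its week 4 libraries lay above all untreated ones (1597, 1620 and 1755 CPM). MT-RNR2 rose by 0.63. Of the mRNAs MT-ATP8 (0.65) and MT-CYB (0.63) rose most, with MT-CYB at 7901 and 8968 CPM in the 2 week 4 libraries, above all of week 1. MT-ND1 (0.52), MT-CO3 (0.52) and MT-ATP6 (0.39) rose, while MT-CO1 (0.12) and MT-ND6 (0.44) were not called. The call of MT-ATP6 was lost without the 2nd week 1 or the 2nd week 4 library (adjusted p up to 0.230, edgeR). Week by week the calls were fewer. MT-RNR2 fell by 0.45 from week 1 to week 2 (beside 13.5% of genes lower) and rose by 0.86 from week 2 to week 3 (beside 10.5% higher), and MT-RNR1 rose by 0.67 over the latter step. Against untreated cells, week 4 continuous had 5 of 13 mRNAs lower and 1, MT-ND3, higher (0.40). Together these calls were below the share of all genes called in either direction, 55.3%. DESeq2 called 3 lower and 1 higher, and of the 8 calls among the 26 genes 3 held in every alternative. The lower ones included MT-CYB (-0.59 ± 0.10 (SE)) and MT-CO2 (-0.59 ± 0.12 (SE)). With either of the 2 week 4 libraries left out, the number higher than at week 1 was 8.

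Off drug at week 2, the largest rises among rRNAs and mRNAs were those of both rRNAs and of the 2 mRNAs next to them in the genome, MT-ND1 and MT-ND2. In all, 12 of 26 genes were higher off drug than on continuous drug and 2 lower, beside 27.3% and 27.9% of all genes. MT-RNR1 stood at 1019, 889 and 1108 CPM on drug and 2573, 2516 and 2288 CPM off it (1.29 ± 0.08 (SE), adjusted p 2.51e-14, edgeR). MT-RNR2 stood at 7896, 6541 and 8547 CPM on drug and 15031, 15324 and 16223 CPM off it (1.02 ± 0.08 (SE), adjusted p 1.08e-11, edgeR). The off-drug libraries of both rRNAs lay above all libraries on drug. MT-ND1 stood at 4997, 4049 and 6232 CPM on drug and 8964, 8984 and 9690 CPM off it (0.86 ± 0.11 (SE), adjusted p 9.28e-08, edgeR). MT-ND2 stood at 3804, 3123 and 5374 CPM on drug and 8520, 8047 and 8616 CPM off it (1.03 ± 0.12 (SE), adjusted p 1.62e-08, edgeR). These 4 genes follow each other in the genome, apart from tRNAs. In both mRNAs the highest library on drug was the 3rd, which stood apart, and the off-drug libraries were above it too. Of the mRNAs farther along, MT-ATP6 (0.56), MT-ATP8 (0.52), MT-ND3 (0.51), MT-CO2 (0.42), MT-ND4 (0.34), MT-ND5 (0.32) and MT-CYB (0.32) rose less. MT-CO1 (0.16), MT-CO3 (0.14), MT-ND4L (0.30) and MT-ND6 (-0.09) were not called. The median was 0.34 over the mRNAs and -0.04 over all genes. Of the 14 calls 9 held in every alternative. Those of MT-ND5 (adjusted p up to 0.280) and MT-ND4 (up to 0.0807, edgeR) were lost with these groups fitted alone and without the 2nd library on drug or the 3rd off it, and that of MT-ND5 also without the 3rd on drug. MT-ATP8 was not called without the 3rd off-drug library (adjusted p 0.0506, edgeR), when 8 genes were higher. Without the libraries that stood apart 14 genes were higher and 2 lower.

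**Figure D3:**
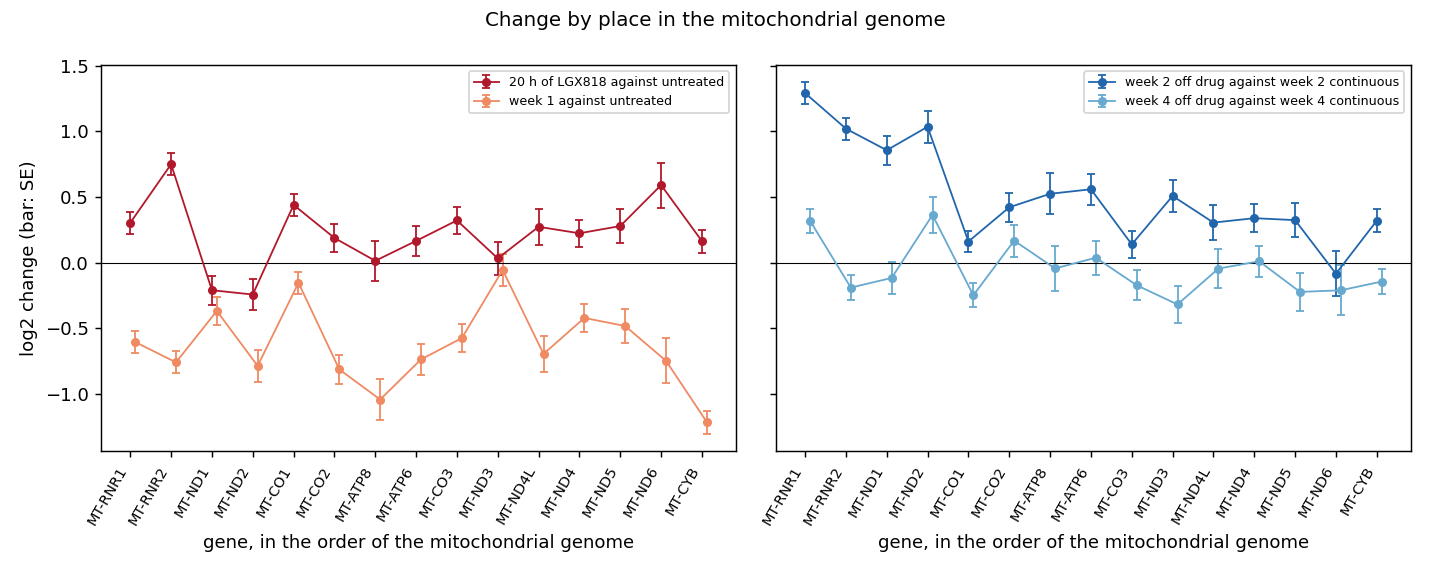
Log2 change with its SE (bars) for the rRNAs and mRNAs in genome order, in the first 2 drug comparisons (left) and in the withdrawals of weeks 2 and 4 (right); lines join neighbours only as a guide. At week 2 off drug the 4 genes from MT-RNR1 to MT-ND2 lie between 0.86 and 1.29 and no later gene exceeds 0.56, and at week 4 the points lie between -0.32 and 0.36.

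Back on drug, these 4 genes fell. At week 3 back on drug, 4 of 26 genes were higher and 5 lower than at week 2 off drug, beside 27.8% and 28.5% of all genes, and this comparison shares the off-drug libraries with the preceding one. MT-RNR1 stood at 1595, 1409 and 1343 CPM (-0.76) and MT-RNR2 at 10733, 10818 and 10175 CPM (-0.55). MT-ND2 fell to 5404, 5175 and 5361 CPM (-0.66 ± 0.12 (SE), adjusted p 2.72e-05, edgeR) and MT-ND1 by 0.44 on the log2 scale. MT-ND6 rose (0.44 ± 0.17 (SE), adjusted p 0.0295, edgeR) though its libraries overlapped, at 149, 134 and 176 CPM off drug and 164, 257 and 203 CPM back on it. MT-CO3 also rose (0.24), while MT-CO1 (0.17), MT-CYB (-0.08) and MT-ATP6 (-0.24) were not called. The calls of MT-ND6 and MT-CO3 were lost with DESeq2, which called 2 genes higher, and without the 1st off-drug library or 2 further single ones (adjusted p up to 0.261 and 0.200).

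At the same week and on drug in both arms, few of these genes were called between intermittent and continuous cells. Of 26 genes 2 were higher back on drug than on continuous drug and 2 lower, beside 14.0% and 14.3% of all genes. MT-RNR2 was the clearest, at 14029, 13986 and 13837 CPM continuous and 10733, 10818 and 10175 CPM back on drug (-0.40 ± 0.08 (SE), adjusted p 4.37e-04, edgeR), with no overlap. MT-ND2 was higher (0.32 ± 0.12 (SE), adjusted p 0.0449, edgeR), a call that was lost with any 1 of the 6 libraries left out except the 2nd continuous one (adjusted p up to 0.111, edgeR). MT-RNR1 (-0.14 ± 0.08 (SE)), MT-ND1 (0.12), MT-CO1 (0.15), MT-ATP6 (0.10), MT-CYB (0.10) and MT-ND6 (-0.06) were not called.

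Off drug at week 4, 1 of 13 mRNAs was higher and 1 lower than on continuous drug. Of 26 genes 2 were higher and 4 lower, beside 26.1% and 25.1% of all genes. MT-ND2 stood at 4591 and 5268 CPM on drug and 5763, 6971 and 6271 CPM off it (0.36 ± 0.14 (SE), adjusted p 0.0265, edgeR). MT-RNR1 stood at 1980 and 2044 and 2297, 2830 and 2401 CPM (0.32 ± 0.09 (SE), adjusted p 0.00434, edgeR). MT-CO1 was lower off drug, at 26734 and 29429 CPM on drug and 21393, 25142 and 24336 CPM off it (-0.25 ± 0.09 (SE), adjusted p 0.0221, edgeR). In each of these 3 genes the groups do not overlap. MT-RNR2 (-0.19), MT-ND1 (-0.12), MT-ATP6 (0.04), MT-CYB (-0.14) and MT-ND6 (-0.21) were not called. The call of MT-ND2 was lost without the 1st continuous or the 2nd off-drug library (adjusted p up to 0.236, edgeR). That of MT-CO1 was lost without the 2nd continuous or the 1st or 3rd off-drug library (up to 0.228, edgeR). With these groups fitted alone 8 genes were lower.

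The difference between the withdrawals was tested itself, as the off-drug difference of week 4 minus that of week 2, in a comparison added after the values had been seen. It was negative and called for 12 of 26 genes and positive for 0, beside 13.6% and 14.5% of all genes, and 0 were positive with DESeq2 or at an unadjusted p under 0.05. It was -1.21 for MT-RNR2, with an adjusted p of 6.59e-09 (edgeR), and -0.97 for MT-RNR1 and for MT-ND1. MT-ND3 (-0.83), MT-ND2 (-0.67), MT-ATP6 (-0.52), MT-CYB (-0.46) and MT-CO1 (-0.41) followed. Of these the calls of MT-CYB, MT-CO1 and MT-ATP6 were lost when the 2nd week 4 continuous library was left out, and over all single libraries left out the number called ranged from 7 to 13. Between the off-drug libraries of the 2 weeks, MT-ND1 (-0.46) and MT-ND2 (-0.41) were lower at week 4. Of the 26 genes these were the only calls by edgeR and by DESeq2 (0 higher at an unadjusted p under 0.05), beside 14.4% of genes lower and 14.6% higher. MT-RNR1 (0.03), MT-RNR2 (-0.13), MT-CO1 (-0.15), MT-CYB (-0.05), MT-ATP6 (-0.16) and MT-ND6 (0.19) were not called. For MT-RNR2 the continuous arm differed more between the weeks, with 7662 ± 1024 CPM (SD, n = 3) at week 2 and 16206 ± 802 CPM (n = 2) at week 4. For MT-ND2 the off-drug arm did, with 8394 ± 305 CPM at week 2 and 6335 ± 606 CPM at week 4 (n = 3). Its continuous levels were 4100 ± 1155 CPM (n = 3) and 4929 ± 479 CPM (n = 2). Week 4 continuous was not tested against week 2 continuous.

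Drug given again was compared with drug given for the first time in the same way, the first exposure being week 1 against untreated and the later one week 3 back on drug against week 2 off drug. The later change minus the earlier one was positive and called for 10 of the 26 genes and negative for 0, beside 23.3% and 25.0% of all genes. DESeq2 called 0 negative, and 1 was negative at an unadjusted p under 0.05. The difference was 1.19 for MT-ND6 (edgeR, adjusted p 1.43e-04) and 1.14 for MT-CYB (edgeR, adjusted p 4.02e-09). MT-CYB had fallen by 1.21 at the first exposure and gave -0.08 at the next. MT-ATP8 (0.90), MT-CO3 (0.82), MT-CO2 (0.80), MT-ND4L (0.63), MT-ATP6 (0.50), MT-ND4 (0.43) and MT-CO1 (0.32) were called too. The rRNAs were not: MT-RNR1 gave -0.16 and MT-RNR2 0.21. Neither were MT-ND1 (-0.07) and MT-ND2 (0.13). The starting levels differed, since MT-CYB stood at 12660 ± 525 CPM in untreated cells and 7878 ± 288 CPM at week 2 off drug (SD, n = 3).

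The make-up of the mRNA pool was described as each mRNA's percent of the summed counts of the 13, and tested by refitting all genes with that sum as the library size. On this scale the median of all tested genes moves with the sum (by -0.13 at 20 h, 0.52 at week 1, -0.44 at week 2 off drug and 0.05 at week 3 back on drug, log2), so changes here are relative to the pool only. At 20 h 2 mRNAs were higher and 2 lower in the pool, beside 16.2% and 30.8% of all genes. MT-ND1 made up 4.79 ± 0.167% of the pool in untreated cells and 3.51 ± 0.175% at 20 h (SD, n = 3, -0.45 ± 0.08 (SE), adjusted p 2.34e-05, edgeR). MT-ND2 made up 4.54 ± 0.0697% in untreated cells and 3.25 ± 0.115% at 20 h (SD, n = 3, -0.48 ± 0.09 (SE), adjusted p 2.20e-05, edgeR). MT-CO1 (0.21) and MT-ND6 (0.36) were the higher ones. MT-ND1 and MT-ND2 had not passed the test on CPM in that comparison.

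At week 1, 2 mRNAs were higher in the pool and 5 lower, beside 49.0% and 10.7% of all genes. MT-CYB fell from 9.27 ± 0.127% to 5.73 ± 0.118% of the pool (SD, n = 3, -0.69 ± 0.08 (SE), adjusted p 2.58e-09, edgeR), and its share stayed between the 2 values in every later group. MT-ATP8 (-0.54), MT-CO2 (-0.29), MT-ND2 (-0.26) and MT-ATP6 (-0.22) were lower. MT-CO1 rose from 21.1 ± 0.263% to 27.2 ± 0.237% of the pool (SD, n = 3, 0.37 ± 0.08 (SE), adjusted p 1.17e-04, edgeR), and MT-ND3 from 1.15 ± 0.0862% to 1.60 ± 0.149% (0.47 ± 0.11 (SE), adjusted p 4.27e-04, edgeR). At week 2 off drug, 3 mRNAs were higher in the pool than on continuous drug and 3 lower, beside 14.7% and 45.5% of all genes. MT-ND1 stood at 7.63 ± 0.0712% off drug and 5.44 ± 0.206% on it (0.49), its highest share in any group. MT-ND2 stood at 6.95 ± 0.234% and 4.35 ± 0.455% (0.68). MT-ATP6 was higher too (0.19), and MT-CO1 (-0.22), MT-CO3 (-0.22) and MT-ND6 (-0.47) were lower. Back on drug at week 3 each of these 6 moved the other way past the test, beside 25.3% of genes higher and 23.7% lower, the off-drug libraries being shared. MT-ND1 gave -0.41, MT-ND2 -0.63, MT-ATP6 -0.20, MT-CO1 0.20, MT-CO3 0.27 and MT-ND6 0.48. At week 4 the pool differed off and on drug in 1 mRNA, MT-ND2 (0.44 ± 0.10 (SE), adjusted p 4.64e-04, edgeR), at 5.71 ± 0.133% off drug (n = 3) and 4.21 ± 0.0779% on it (n = 2), beside 24.9% of genes higher.

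**Figure D4:**
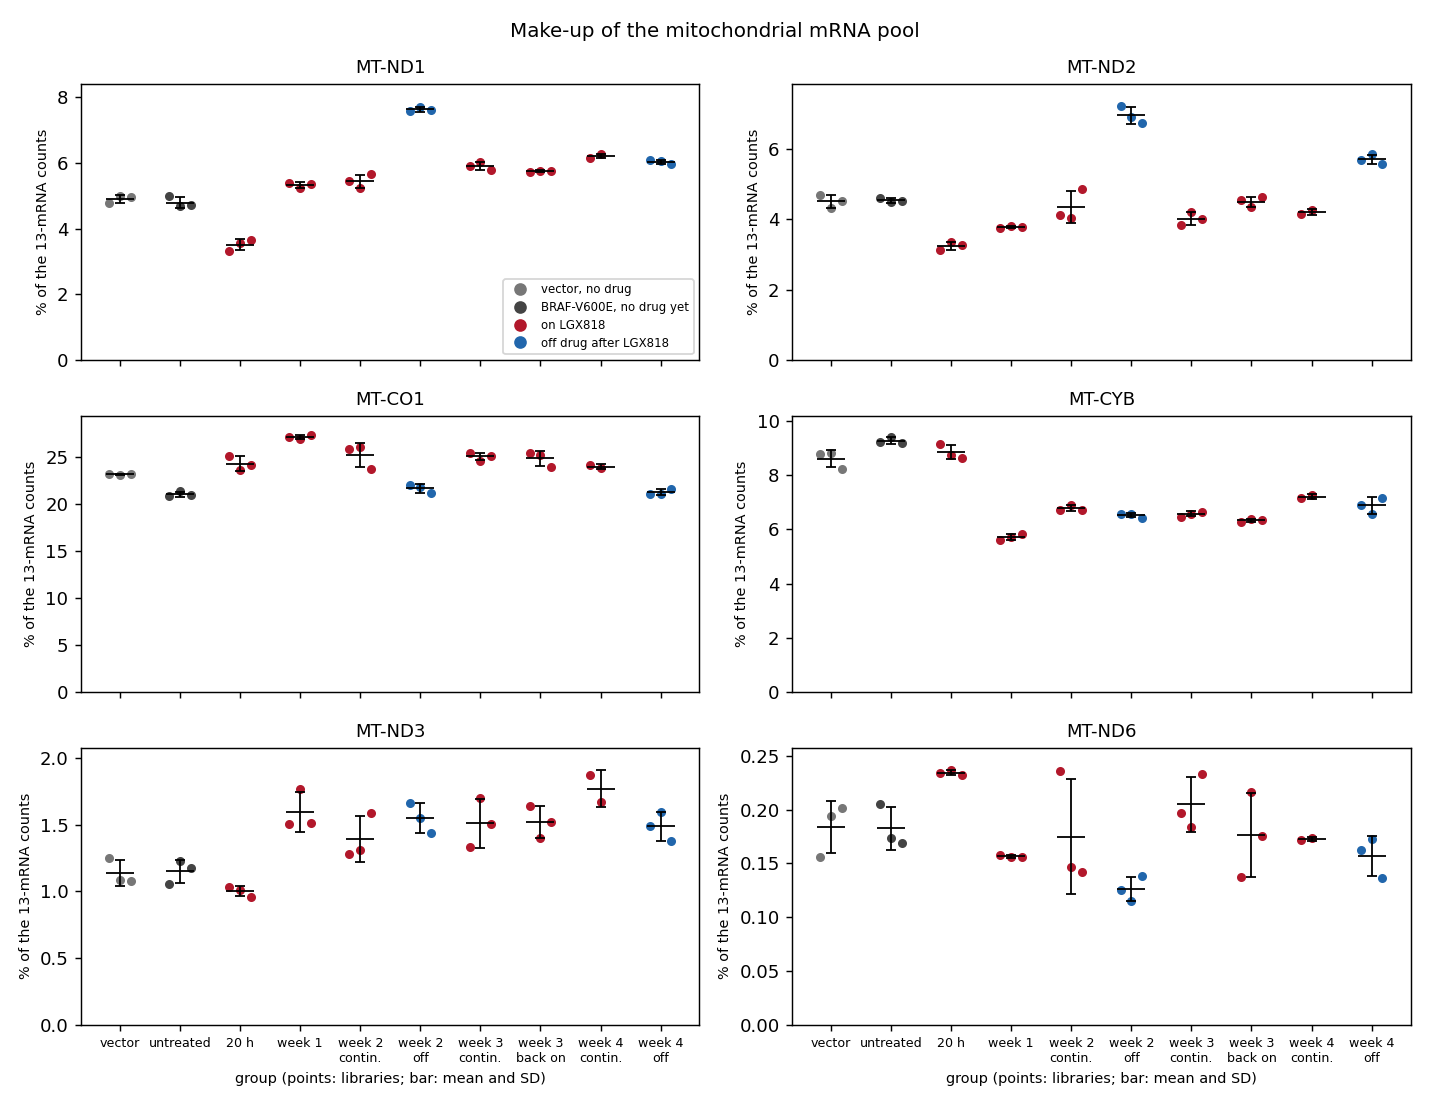
Percent of the summed counts of the 13 mitochondrial mRNAs taken by 6 of them in each library, by group; points are libraries, bars the mean and SD, and each panel has its own vertical scale from 0. MT-ND1 and MT-ND2 are lowest at 20 h and highest at week 2 off drug, MT-CO1 is highest at week 1, and MT-CYB is above 8% in vector, untreated and 20 h libraries and below it in the rest.

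The 22 tRNA genes held 0.0167% of all mitochondrial counts. MT-TK, MT-TG and MT-TR had no count in any library, and 7 tRNA genes, these 3 included, had a count in under 10 libraries. The highest mean was that of MT-TT with 6.63 CPM, followed by MT-TS1 (serine, 3.57 CPM), MT-TQ (3.47 CPM), MT-TP (proline, 2.84 CPM) and MT-TW (tryptophan, 1.18 CPM). MT-TT moved against most mRNAs at week 1 and at week 2 off drug, and with those that rose between week 1 and week 4 on continuous drug (0.76), a call lost without the 1st week 4 library (adjusted p 0.0673, edgeR). It stood at 4.72, 5.71 and 5.26 CPM in untreated cells and 7.94, 7.21 and 7.96 CPM at week 1 (0.55 ± 0.19 (SE), adjusted p 0.0144, edgeR). At week 2 its libraries stood at 5.97, 6.87 and 10.5 CPM on continuous drug and 4.53, 3.33 and 4.84 CPM off it (-0.88 ± 0.20 (SE), adjusted p 3.11e-04, edgeR). At week 4 they stood at 14.4 and 11.7 CPM on continuous drug and 3.24, 4.31 and 2.10 CPM off it (-2.01 ± 0.21 (SE), adjusted p 1.48e-09, edgeR). The on-drug libraries were above the off-drug ones in both weeks. MT-TT was also higher back on drug at week 3 than off drug at week 2 (0.81), and lower than on continuous drug (-0.52). MT-CYB, the mRNA it adjoins, was higher off drug at week 2 (0.32). In the first 20 h MT-TT gave -0.42 ± 0.21 (SE) and was not called.

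MT-TE also went against the mRNAs at week 2. It stood at 1.28, 0.846 and 0.561 CPM on continuous drug and 0.251, 0.393 and 0.627 CPM off it (-1.04 ± 0.33 (SE), adjusted p 0.00763, edgeR), with libraries that overlap, and rose back on drug to 1.15, 1.07 and 0.788 CPM (1.21 ± 0.32 (SE), adjusted p 0.00164, edgeR). Its call at week 2 was lost with these groups fitted alone and without the 1st library of either group (adjusted p up to 0.0973, edgeR). MT-TQ stood out at 20 h, with 2.92, 3.14 and 3.67 CPM in untreated cells, 7.65, 11 and 8.03 CPM at 20 h and 2.20, 3.0 and 3.92 CPM at week 1 (1.45 ± 0.22 (SE), adjusted p 1.12e-06 against untreated, edgeR). No other group reached the 20 h libraries. MT-TA, the alanine tRNA, was higher at 20 h too (1.03 ± 0.39 (SE), adjusted p 0.0248, edgeR), with overlapping libraries, and lost the call without the 2nd or 3rd untreated or the 2nd 20 h library (adjusted p up to 0.223, edgeR). MT-TE was called higher at 20 h (0.73), but 9 of 13 alternatives lost that call. MT-TF, the phenylalanine tRNA ahead of MT-RNR1, was lower at 20 h (-1.34), higher off drug at week 2 (1.31) and lower back on drug (-0.99). Its calls off drug and back on drug were lost with 3 and 7 of 13 alternatives (adjusted p up to 0.0675 and 0.163, edgeR). It held 507 counts in all libraries together, and its 20 h call was lost without the 3rd untreated or the 1st or 3rd 20 h library (adjusted p up to 0.0895, edgeR). MT-TI (isoleucine) was lower (-0.78) and MT-TD (aspartate) higher (1.11) at week 1 than in untreated cells, and both calls were lost without the 2nd or 3rd untreated or the 2nd week 1 library and with 1 further library left out (adjusted p up to 0.181 and 0.135, edgeR). MT-TS1, MT-TP and MT-TW were not called in any of the 10 main comparisons. MT-TY (tyrosine) was called lower off drug at week 4 (-1.24), a call that 5 alternatives lost, as was MT-TA (-1.67), lost without the 1st continuous library (adjusted p 0.0652, edgeR). MT-TQ and MT-TI overlap on opposite strands by 3 bases, and whether the counting used strand is not given in the sources used here. Reads of a tRNA gene, or of MT-ND6, and of RNA from the other strand can therefore not be told apart.

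**Figure D5:**
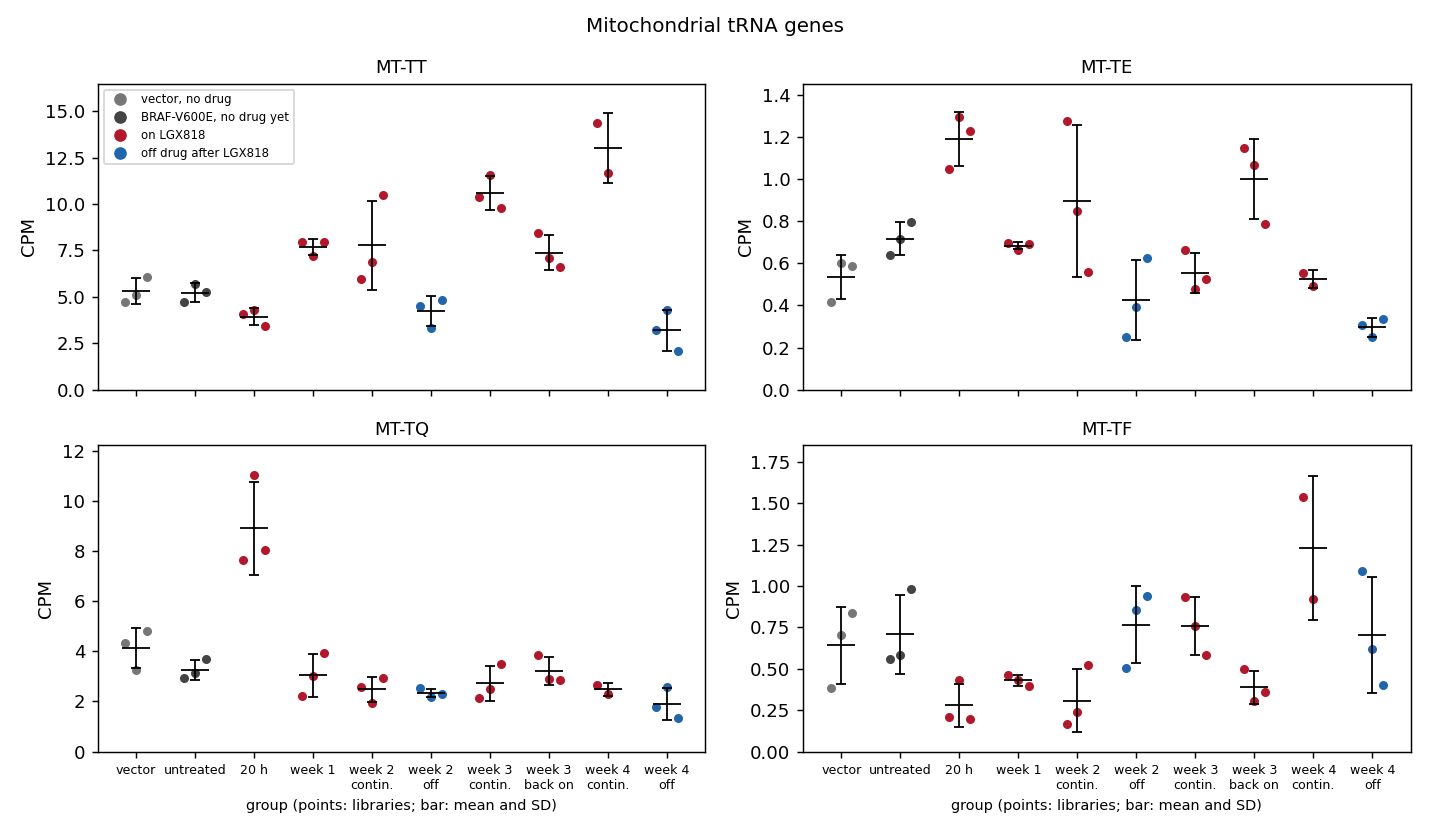
Level in CPM of MT-TT, MT-TE, MT-TQ and MT-TF in each library, by group; points are libraries, bars the mean and SD, and each panel has its own vertical scale from 0. MT-TT is lower in both off-drug groups than on continuous drug of the same week, and MT-TQ is highest in the 20 h libraries.

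The nuclear genome holds copies of mitochondrial genes whose reads can be mistaken for those of the members. Of 386 such pseudogenes 108 had a count and 15 were tested. Their summed counts, which are not part of those of the members, came to 1.52% to 2.04% of the members' counts in a library. The highest were MTATP6P1 (1960 CPM, chr1:633696-634376), MTND2P28 (258 CPM, chr1:629640-630683) and MTCO1P12 (94.8 CPM, chr1:631074-632616), in GENCODE 29 on GRCh38. For MT-ATP6 the copy was not small, with a mean of 2541 CPM for MTATP6P1 in untreated cells beside 8079 CPM for the gene. In a global alignment 98.5% of the bases of MT-ATP6 were the same in MTATP6P1, 98.4% of those of MT-ND2 in MTND2P28, and 98.7% of those of MT-CO1 in MTCO1P12. The copies moved with the genes. At week 1 against untreated MTATP6P1 gave -0.84 beside -0.74 for MT-ATP6, and MTND2P28 gave -0.99 beside -0.79 for MT-ND2. At week 2 off drug MTATP6P1 gave 0.69 and MTND2P28 1.20. With the counts of gene and copy added, the log2 ratio of group means was -0.76 for MT-ATP6 at week 1 and 1.04 for MT-ND2 at week 2 off drug, against -0.74 and 1.03 for the genes alone. Which of these reads came from the nuclear copies was not tested.

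Nuclear genes that serve the mitochondrial genome were taken from lists chosen for their function. The counts below stand beside the shares of all tested genes: 25.2% lower and 28.4% higher at 20 h, 26.7% and 27.5% at week 1, and 27.9% and 27.3% at week 2 off drug. Of 9 genes of mitochondrial transcription, 5 were lower and 1 higher at 20 h, with a median of -0.60 against 0.06 over all genes. At that time no mitochondrial mRNA or rRNA was called lower in CPM by edgeR or DESeq2 with all libraries, and 0 were lower at an unadjusted p under 0.05. Some alternatives called more members lower, and relative to the mRNA pool MT-ND1 (-0.45) and MT-ND2 (-0.48) were lower. The relation of this list to the mitochondrial levels was not tested. TFAM, which packages the genome and helps to start its transcription, stood at 30.1 ± 1.56 CPM in untreated cells, 16.7 ± 1.02 CPM at 20 h and 15.8 ± 0.721 CPM at week 1 (SD, n = 3), lower in both (-0.85 and -0.93). TFB2M, which opens the promoter, was lower at 20 h (-1.18) and less so at week 1 (-0.41). POLRMT, the RNA polymerase, was lower at 20 h (-0.61) and not called at week 1 (0.15). TEFM, the elongation factor, was called at week 1 alone of these times, and higher (0.51). TFB1M, which methylates the small rRNA, had the largest fall of the list at 20 h (-2.37) and MTERF2 the largest rise (0.59). At week 1 the list had 3 lower and 2 higher, and at week 2 off drug 2 lower and 1 higher, near or below the shares of all genes at both times.

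Of 25 genes of mitochondrial RNA processing and stability, 15 were lower and 4 higher at 20 h, and 13 lower and 3 higher at week 1, with medians of -0.33 and -0.26. LRPPRC, which stabilises mitochondrial mRNAs, stood at 271 ± 7.46 CPM in untreated cells and 158 ± 5.68 CPM at week 1 (SD, n = 3, -0.77 ± 0.06 (SE), adjusted p 7.67e-12, edgeR). Its partner SLIRP was lower as well (-0.47), and so was MTPAP, the poly(A) polymerase of the organelle (-0.60). PNPT1, a subunit of the RNA-degrading exonuclease, was lower at 20 h (-0.74) and at week 2 off drug against continuous drug (-0.54). At week 2 off drug the list had 5 higher, GRSF1 most (0.63), and 7 lower, ELAC2 most (-0.55), near or below the shares of all genes.

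PPARGC1A changed most of all the nuclear genes fixed for this description. It stood at 63.3 ± 4.41 CPM in untreated cells, 186 ± 10.1 CPM at 20 h (1.55) and 1.76 ± 0.219 CPM at week 1 (-5.18 ± 0.21 (SE), adjusted p 1.51e-19, edgeR, SD, n = 3). At week 2 it stood at 2.40 ± 0.750 CPM on drug and 5.47 ± 1.52 CPM off it (1.19), and at week 4 at 8.0 ± 1.25 and 6.11 ± 0.932 CPM (-0.39, not called). It remained below its untreated level at week 4 continuous (-2.98). Among the mitochondrial mRNAs MT-ND3 was then the only one called higher than in untreated cells (0.40). MT-ND1 was not called (0.15), and MT-CYB, MT-CO2 and others were called lower. The relation of PPARGC1A to these levels was not tested.

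The nuclear subunits of the respiratory complexes were followed for the same drug steps. Of 37 tested complex I subunits 13 were higher and 2 lower at 20 h, and 3 higher and 14 lower at week 1, beside 28.4% and 25.2% of all genes at 20 h and 27.5% and 26.7% at week 1. The largest fall at week 1 was that of NDUFV2 (-2.08), a subunit of the NADH-binding arm. Of 9 complex III subunits 4 were called at 20 h, each higher, and 6 at week 1, each lower. Of 11 complex IV subunits 2 were higher at 20 h, below the share of all genes. In that list 8 were lower at week 1 and 5 higher at week 2 off drug, with no call the other way at these times. Of 17 ATP synthase subunits 3 were higher and 2 lower at 20 h, below the shares of all genes, and 8 were called at week 1, each lower. Medians at week 1 were -0.16 (complex I), -0.37 (complex III), -0.42 (complex IV) and -0.31 (ATP synthase), beside -0.70 for the 13 mitochondrial mRNAs and 0.00 for all tested genes. The 4 genes of complex II, which has no mitochondrially encoded subunit, gave 4 lower at week 1 (median -0.30). At week 2 off drug 27.3% of all genes were higher and 27.9% lower. Below these shares lay complex I (6 higher, 4 lower), complex II (1 and 0), complex III (1 and 2) and the ATP synthase (3 and 2). Of 76 mitochondrial ribosomal protein genes 38 were lower and 6 higher at 20 h, when MT-RNR2 was at its highest, and 25 were lower and 5 higher at week 1.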

How the data were processed

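The authors deposited unnormalized counts of reads for each gene. The submitters' processing notes name HTSeq 0.6.1, HISAT2 2.0.3, Trimmomatic 0.32, SAMtools 0.1.18 and the build GRCh38. The annotation release and strand setting are not given in the sources used here. Per the labels' protocols RNA was extracted from all samples after the last time point. Columns were matched to samples by name. The intermittent week 3 columns are named off drug in the table and on drug in the labels, which were followed.

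The tests were those of edgeR 4.0.16 under R 4.3.3 (TMM, filterByExpr, 1 quasi-likelihood fit of 29 libraries in 10 groups, Benjamini-Hochberg adjustment over 20494 genes). SE is the log2 change divided by the square root of F. A second fit took the summed counts of the 13 mitochondrial mRNAs as library size. There were 10 main and 8 secondary comparisons, and 2 differences of differences added after the values had been seen. In counts simulated for these groups the fit called all 13 mitochondrial mRNAs, which had been lowered 1.5-fold at week 1. The simulation gave all genes a common spread and held no library that stood apart. It therefore checks the running of the fit, and does not measure its sensitivity in these data. The members and lists were chosen with earlier results of these data known. All members could be named, 7 of them in every main comparison together with the called mRNAs that moved most, and the nuclear genes named were fixed or had the largest called rise or fall of a described list. Alternatives were RLE factors, scaling without mitochondrial genes, no count filter, DESeq2 1.42.0, a term for the replicate number, the compared groups alone, and leaving out single libraries or the 2 that stood apart. All 37 members were matched by identifier, and every column of counts belongs to a listed sample. Positions, lengths and sequences came from GENCODE 29. Figures were drawn with matplotlib 3.10.9.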

Additional observations from a re-analysis of the deposited data

Results flagged for a closer look

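The 22 results below are differences between 2 contrasts in the edgeR fit, each past an adjusted p of 0.05 over all genes, and their causes were not tested. The off-drug difference of week 4 minus that of week 2 was -1.21 for MT-RNR2, -0.97 for MT-RNR1 and -0.97 for MT-ND1. For the other called mRNAs it was -0.83 for MT-ND3, -0.67 for MT-ND2, -0.55 for MT-ND5, -0.52 for MT-ATP6, -0.46 for MT-CYB and -0.41 for MT-CO1. For tRNAs it was -2.12 for MT-TF, -2.02 for MT-TA and -1.13 for MT-TT, the first of these from at most 1.54 CPM in every library. Without the 2nd week 4 continuous library the calls of MT-CYB, MT-ND5, MT-CO1, MT-ATP6 and MT-TA were lost, and without the 1st those of MT-TF and MT-TA. The last 4 of the former group also lost theirs with other single libraries left out, and over all alternatives the adjusted p (edgeR) reached 0.172 for MT-ND5, 0.150 for MT-ATP6, 0.140 for MT-TA, 0.0843 for MT-TF, 0.0796 for MT-CO1 and 0.07 for MT-CYB.

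The change on renewed drug minus the change on first exposure was 1.19 for MT-ND6, 1.14 for MT-CYB, 0.90 for MT-ATP8, 0.82 for MT-CO3 and 0.80 for MT-CO2. It was 0.63 for MT-ND4L, 0.50 for MT-ATP6, 0.43 for MT-ND4 and 0.32 for MT-CO1. MT-TE gave 1.28, and lost the call without the count filter or the 1st off-drug library (adjusted p up to 0.0892, edgeR). MT-CO1 (up to 0.0856) and MT-ND4 (up to 0.0557, edgeR) lost theirs without the 1st untreated or the 2nd week 1 library, and MT-CO1 also without the 1st or 2nd week 3 back-on-drug library. The first exposure started from untreated cells and the renewed one from cells that had already been on drug.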

How the results depend on the processing

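Of the single-gene values under the alternatives, 8361 kept their side of the threshold, 278 passed it newly and 320 no longer did. The direction of small uncalled values could reverse. MT-ND6 at week 2 stood at 217, 113 and 156 CPM on continuous drug and 149, 134 and 176 CPM off it. The sign of its difference rested on the 1st library on drug. Counts of the 26 genes that moved by over 1.5 times were as follows, and the causes were not tested. Without the count filter 14 were higher in untreated than in vector cells, 4 lower at 20 h and 1 higher at week 1. With the compared groups alone 14 were higher in untreated than in vector cells, 5 lower at 20 h, 2 higher at week 1 against 20 h, 1 lower at week 2 off drug and 8 lower at week 4 off drug. DESeq2 called 1 higher at week 1 and 2 higher back on drug. Without the libraries that stood apart 12 were higher in untreated than in vector cells and 5 lower at 20 h. Relative to the mRNA pool and without the filter, 0 were higher in untreated than in vector cells, 3 lower at week 1, 3 higher back on drug and 1 lower at week 4 off drug against week 2 off drug. A replicate block there gave 2 higher in untreated than in vector cells and 1 lower at week 4 against week 1. In week 4 continuous against untreated DESeq2 called 3 of 13 mRNAs lower, where edgeR called 5. On the level scale the block moved no count of members by over 1.5 times. The numbers do not pair the libraries: correlations of same-numbered deviations lay between -0.214 and 0.112, and in 0 of the main comparisons did every pair pass 0.1. As a percent of the counts outside the mitochondrial genes, the 37 genes came to 14.7 (vector), 18.6 (untreated), 24.2 (20 h), 11.5 (week 1), 11.4 (week 2 continuous), 14.6 (week 2 off), 14.4 (week 3 continuous), 15 (week 3 back on), 16.4 (week 4 continuous) and 14.6 (week 4 off).

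Leaving out single libraries gave these ranges of counts, higher and then lower. Untreated against vector gave 4 to 7 higher. At 20 h there were 5 to 10 and 0 to 3, at week 1 against untreated 1 to 2 and 13 to 14, and against 20 h 15 to 17 lower. Week 4 continuous against week 1 gave 8 to 12 higher, week 2 off drug 8 to 13 and 1 to 2, and week 3 back on drug against off drug 2 to 4 and 4 to 5. Against week 3 continuous there were 0 to 1 and 1 to 2, at week 4 off drug 1 to 2 and 2 to 5, and against week 2 off drug 1 to 3 lower. The differences of differences gave 7 to 13 lower for the withdrawals, and 8 to 11 higher and 0 to 1 lower for renewed drug. Relative to the pool, in the order of the main comparisons, the ranges were 0 to 2 and 0 to 1, 2 to 3 and 4 to 6, 4 to 6 and 4 to 6, 5 to 7 and 4 to 6, 2 to 5 and 0 to 1, 4 to 7 and 3 to 5, 3 to 5 and 4 to 5, 2 to 3 lower, 1 to 2 and 1 to 3, and 0 to 1 and 1 to 2. Where 1 library of week 4 continuous was left out, the lone one was taken to vary as libraries of the remaining groups do. Depth limits the tRNAs, of which 11 of 22 could be tested.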

Other observations

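Further nuclear lists are given beside the shares of all tested genes, 25.2% lower and 28.4% higher at 20 h, 26.7% and 27.5% at week 1, 27.9% and 27.3% at week 2 off drug, and 25.1% and 26.1% at week 4 off drug. Of 12 genes of mitochondrial DNA replication, 7 were lower and 1 higher at 20 h (median -0.45), where C10orf2, the helicase, fell most (-1.06). At week 1, 5 were lower and 2 higher, with DGUOK, which supplies deoxynucleotides in the organelle, falling most (-0.54). Of 8 regulators of mitochondrial biogenesis, 2 were higher and 5 lower at 20 h, 7 were lower at week 1 and 4 were higher at week 2 off drug. PPARGC1B, a relative of PPARGC1A, fell at 20 h (-1.10) and rose off drug at week 2 (1.46) and at week 4 (2.02). Of 16 genes of protein import and quality control, 9 were lower and 3 higher at 20 h, and 7 higher and 2 lower at week 4 off drug. Of 76 mitochondrial ribosomal protein genes, 29 were higher and 3 lower at week 4 off drug (median 0.19), when MT-RNR1 was higher (0.32) and MT-RNR2 not called (-0.19).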
